A study of Mus musculus with 6 samples.

Results

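The genes described here are the mouse zinc finger genes named Zfp with a number. Members were the rows of the deposited expression table whose symbol was exactly Zfp followed by digits, with a mean over the 6 libraries of at least 1 FPKM. FPKM is reads scaled to gene length and to a total set for each library, a level that can be compared between genes. Zfp36 was left out, since it encodes an RNA-destabilising protein with another type of finger. The table held 342 such symbols among 47643 rows: 51 had no read in any library, 190 were above 0 but under the minimum, and 101 were members. The members were chosen by the measured mean level over both genotypes, so that level is given as a description. A gene high in only one genotype can pass it through that genotype alone: 75 members had a mean of at least 1 FPKM in both genotypes, 14 in KO only and 12 in WT only. Just outside the minimum lay Zfp775 and Zfp87 (means of 0.990 and 0.996 FPKM), and just inside it lay Zfp946 and Zfp934 (1.044 and 1.045 FPKM).

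The RNA came from sorted leukaemic GMP cells of C57BL/6 mice, that is, leukaemia cells akin to the granulocyte-macrophage progenitor, the normal precursor of neutrophils and monocytes. There were 3 libraries from cells labelled KO, a double knockout of Prkaa1 and Prkaa2, and 3 from cells labelled wild type (WT). Either gene encodes a form of the catalytic subunit of AMPK, the AMP-activated kinase that senses low cellular energy. The labels give no oncogene, Cre driver, age, number of mice or batch, and nothing says that the 3 libraries of a genotype came from separate animals, so p-values measure no more than the spread among them, which may be technical.

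Most Zfp proteins carry an array of C2H2 fingers, each of which folds around a zinc ion and reads a few bases of DNA. Many also carry a KRAB box, which binds TRIM28, a scaffold that brings the histone methyltransferase SETDB1 and heterochromatin proteins to the bound site. KRAB proteins are best known for silencing transposable elements, whereas other Zfp proteins activate promoters or work on RNA and ribosomes. The genes lie in clusters that expanded by duplication, and most are expressed at low levels.

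Whole reads recovered from the FPKM values numbered 12371716 to 14024685 in the KO libraries and 11389758 to 16415006 in the WT libraries. The totals by which the values imply reads were divided ran from 1.14e+07 to 1.29e+07 in KO and from 1.27e+07 to 1.81e+07 in WT. They lay below the recovered reads in each KO library and above them in each WT library, so the deposited values carry a scaling other than depth alone. Summed FPKM was 649611 to 653819 in KO and 463683 to 475654 in WT. The main counts below are therefore also given with all libraries rescaled to equal sums, which replaces the deposited scaling. That moved the median log2 change of all tested genes to -0.41, against -0.02 as deposited. Prkaa1 was at 1.11, 0.735 and 0.548 FPKM in KO and at 2.01, 2.20 and 1.80 FPKM in WT (log2 change -0.75, limma adjusted p = 0.00112), and Prkaa2 was at or near 0 in both genotypes. The genotypes also differed in other markers. The 6 neutrophil genes summed to 71370 to 72764 FPKM in KO and 299.95 to 314.6 in WT, with none at 0. Most of both sums was S100a8 (means of 52072 FPKM in KO and 205 in WT) and S100a9 (14560 and 67.7). The granule gene Camp averaged 10.3 FPKM in KO and 6.74 in WT, and Ngp 4568 and 9.83. The 5 basophil, mast cell and eosinophil genes summed to 528 to 562 FPKM in KO and 26.9 to 33.3 in WT, where Epx and Prss34 were at 0. The 6 erythroid genes summed to 61.1 to 63.7 FPKM in KO and 12.3 to 15.1 in WT, where Epor and Gata1 were at 0. The leukaemia genes Hoxa9, Hoxa10 and Meis1 summed to 0.412 to 0.684 FPKM in KO, where Hoxa10 was at 0, and 25.3 to 26.3 in WT. Of 10 progenitor markers, 10 reached 1 FPKM in KO and 9 in WT, but their levels differed. Kit averaged 1.43 FPKM in KO and 0.250 in WT, whereas Cd34 averaged 3.51 FPKM in KO and 27.8 in WT, Fcgr3 66.8 in KO and 128.9 in WT, and Fcgr2b 4.19 in KO and 14.9 in WT. Elane averaged 7923 FPKM in KO and 1758 in WT, Prtn3 2056 and 472, Mpo 442 and 159, Ctsg 6362 and 5423, and Cebpe 132 and 86.3. Ms4a3 averaged 365 FPKM in KO and 429 in WT. Together the 10 summed to 17200 to 17513 FPKM in KO and 8347 to 8669 in WT. All the Zfp results below were measured beside these differences, and the part that the markers play in them was not tested.

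The Zfp genes split almost evenly between the genotypes. Of the 101 members, KO libraries were higher for 40 and lower for 37, and 24 did not pass (limma on log2(FPKM + 1), Benjamini-Hochberg adjusted p under 0.05). Of all 9108 genes tested, 38% were higher and 40.4% were lower, and 78.4% passed in either direction. The members' shares, 39.6% higher and 36.6% lower, lay near that background. Their median log2 change was -0.03, against -0.02 for all tested genes. Among the calls, 51.9% of those of Zfp genes and 48.5% of those of all genes were higher. In 40 members every KO library lay above every WT library, and in 37 every KO library lay below, where 39.1% and 41.6% of all genes did so (80.6% together). A change of at least 2-fold on this scale was found in 17 members upward and 9 downward, against 1185 and 1249 of the 9108 tested genes. Among the 75 members with a mean of at least 1 FPKM in both genotypes it was 9 and 4, against 790 and 827 of 7774 such genes. In bulk RNA, fewer cells of a type and less RNA per cell cannot be told apart.

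**Figure D1:**
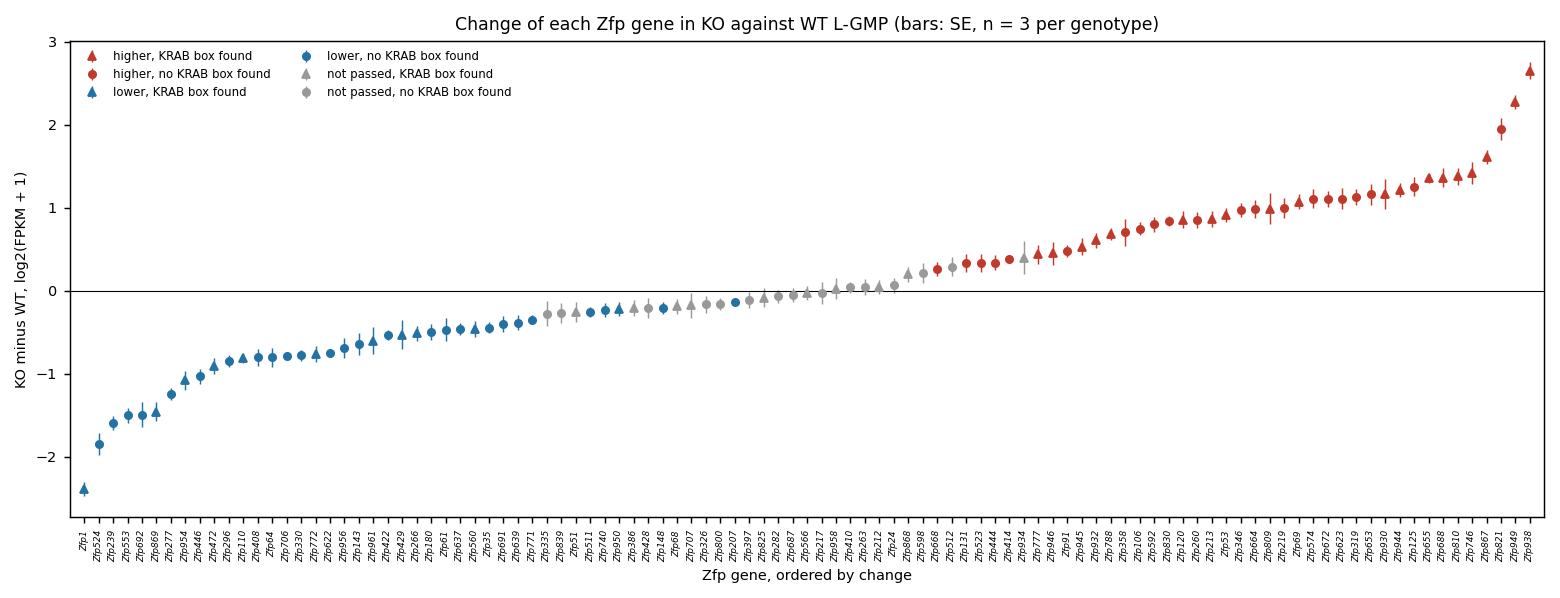
Difference in log2(FPKM + 1), KO minus WT, for each of the 101 Zfp genes, ordered by change, with bars for the SE (n = 3 libraries per genotype). Triangles mark genes whose coding sequence matched the KRAB pattern and circles the others. Red marks the 40 genes higher in KO, blue the 37 lower and grey the 24 that did not pass, and the changes run from 2.65 for Zfp938 to -2.39 for Zfp1.

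The direction of the split rested on whether the libraries were rescaled to equal sums. Quantile normalization kept 75 of the 77 calls, and the median change of the members was then -0.02. With the libraries rescaled to equal sums, 31 members were higher in KO and 56 were lower, against a background of 22.8% higher and 59.1% lower. Higher calls were then 35.6% of the members' calls and 27.8% of the calls of all genes, and the median change of the members was -0.37. Among the 75 members that reached 1 FPKM in both genotypes, 27 were higher and 25 lower as deposited, beside 37.0% and 39.5% of all such genes, and 20 were higher and 44 lower after rescaling.

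**Figure D2:**
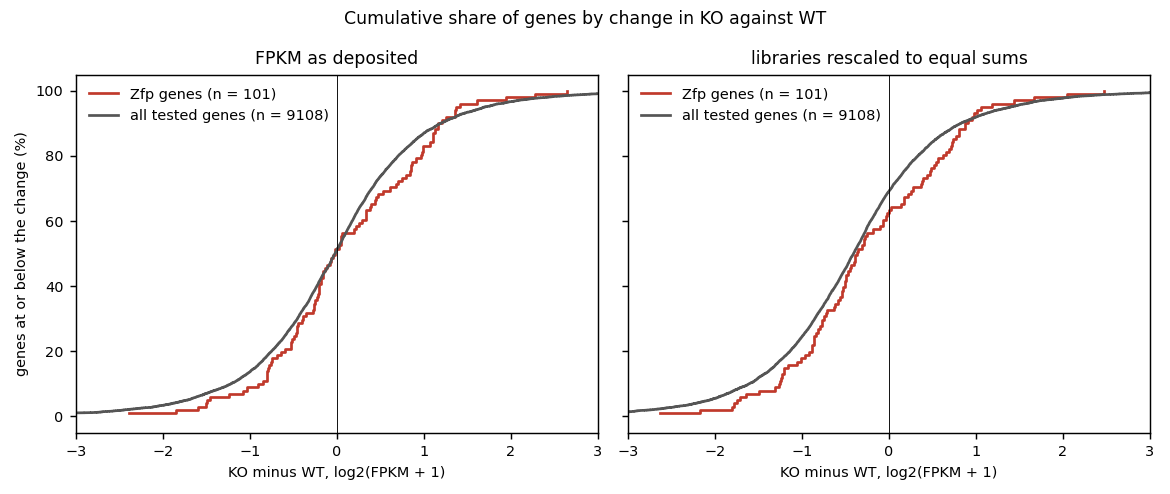
Cumulative share of genes (percent) by their difference in log2(FPKM + 1), KO minus WT, for the 101 Zfp genes (red) and all 9108 tested genes (grey), with the FPKM values as deposited on the left and rescaled to equal library sums on the right. As deposited both curves reach the middle near 0 (medians -0.03 and -0.02), and after rescaling both lie to the left of 0 (medians -0.37 and -0.41).

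The widest differences by fold were close to all-or-none. Each gene of this paragraph and the next had a mean under 1 FPKM in 1 genotype and passed the minimum through the other alone. Their one-sidedness is therefore given as a description. Zfp938 (ENSMUSG00000062931, chr10:82224850-82241280, minus strand, GRCm38), a KRAB gene with 10 fingers, was at 4.85, 4.95 and 6.14 FPKM in KO and had no read in any WT library. Its 421 KO reads made it at least 170-fold higher in KO, against a floor of 3 reads over the WT group (log2 change 2.65, SE 0.10, limma adjusted p = 2.75e-07). Zfp949 (chr9:88548020-88571061, plus strand), another KRAB gene, was at 5.23, 4.50 and 5.23 FPKM in KO and at 0.249, 0.215 and 0.242 FPKM in WT. That made it 21.2-fold higher, with 764 reads in KO and 43 in WT (log2 change 2.27, adjusted p = 2.45e-07). Zfp867 (chr11:59461197-59472474, minus strand) was at 2.11, 2.34 and 2.56 FPKM in KO and at 0.115, 0.113 and 0.0416 FPKM in WT, 25.9-fold higher on 296 and 14 reads (log2 change 1.61, adjusted p = 2.05e-06). The groups lay far apart in each of these genes.

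Zfp1 (chr8:111643401-111671011, plus strand), a KRAB gene with 8 fingers, was the mirror image, at 0.167, 0.234 and 0.124 FPKM in KO and 4.88, 5.46 and 5.12 FPKM in WT. It was 29.4-fold higher in WT, on 12 reads in KO and 436 in WT (log2 change -2.39, SE 0.08, adjusted p = 1.74e-07), the largest fall of the members. Zfp239 (chr6:117862100-117873291, plus strand) encodes MOK2, a protein that binds both DNA and RNA. It was at 0.0358, 0.0603 and 0.0708 FPKM in KO and 2.02, 2.22 and 2.34 FPKM in WT, 39.4-fold higher in WT on 9 and 431 reads (log2 change -1.60, adjusted p = 1.37e-06). Zfp553 (chr7:127233061-127238179, plus strand) was at 0.138, 0.243 and 0.214 FPKM in KO and 2.35, 2.13 and 2.71 FPKM in WT, 12.1-fold higher in WT (log2 change -1.50, adjusted p = 4.42e-06). The log2(FPKM + 1) scale understates the folds of such weakly expressed genes.

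Among the other large rises was Zfp821, at 4.81, 6.23 and 5.34 FPKM in KO and 0.518, 0.987 and 0.533 FPKM in WT (log2 change 1.95, adjusted p = 7.55e-06). Zfp746 encodes PARIS, a KRAB repressor of the mitochondrial regulator PGC-1alpha that is degraded through parkin. It was at 3.29, 2.48 and 2.86 FPKM in KO and 0.225, 0.536 and 0.608 FPKM in WT, 6.30-fold higher (log2 change 1.42, adjusted p = 4.06e-05). Zfp655, whose product binds the signalling protein VAV1, was at 7.60, 7.65 and 7.37 FPKM in KO and 2.32, 2.32 and 2.38 FPKM in WT, 3.22-fold higher (log2 change 1.35, adjusted p = 6.15e-07). None of these groups overlapped, but Zfp821 and Zfp746 also passed the minimum through KO alone. The remaining genes of the 12 largest rises were Zfp810 (log2 change 1.38), Zfp688 (1.36), Zfp125 (1.26), Zfp944 (1.21), Zfp930 (1.16) and Zfp653 (1.16). Zfp688 was the most abundant of them, at 13.7 ± 0.78 FPKM in KO and 4.75 ± 0.87 FPKM in WT (SD, n = 3 each). Zfp125 is annotated as a transcribed pseudogene, and it was the only member not annotated as protein coding. Of the 12 largest rises, 9 had a KRAB box by the pattern used here, where 40 of the 100 coding members had one.

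Among the other large falls was Zfp692, at 1.47, 0.760 and 0.787 FPKM in KO and 4.09, 4.50 and 5.20 FPKM in WT (log2 change -1.49, adjusted p = 6.20e-05). Its product, also called AREBP, is known from liver cells as a DNA-binding protein phosphorylated by AMPK. Zfp524 was at 1.25, 0.855 and 0.969 FPKM in KO and 7.29, 6.46 and 5.18 FPKM in WT (log2 change -1.85, adjusted p = 7.83e-06), but its reads are uncertain because another gene covers 51.6% of its exonic bases. Zfp277, known in mouse fibroblasts for recruiting Polycomb proteins to the Cdkn2a locus, was at 4.46, 3.75 and 4.22 FPKM in KO and 11.0, 10.7 and 11.8 FPKM in WT, 2.70-fold higher in WT (log2 change -1.24, adjusted p = 3.16e-06). The KO libraries lay below the WT libraries in all 3 genes. The others of the 12 largest falls were Zfp869 (log2 change -1.46), Zfp954 (-1.08), Zfp446 (-1.03), Zfp472 (-0.91), Zfp296 (-0.85) and Zfp110 (-0.81). Zfp954 was the most abundant of these in WT, at 5.30 ± 0.49 FPKM in KO and 12.4 ± 2.0 FPKM in WT. Of the 12 largest falls, 5 had a KRAB box by the same pattern, beside the same 40 of 100 coding members. All 24 of these rises and falls kept their call with the libraries rescaled.

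**Figure D3:**
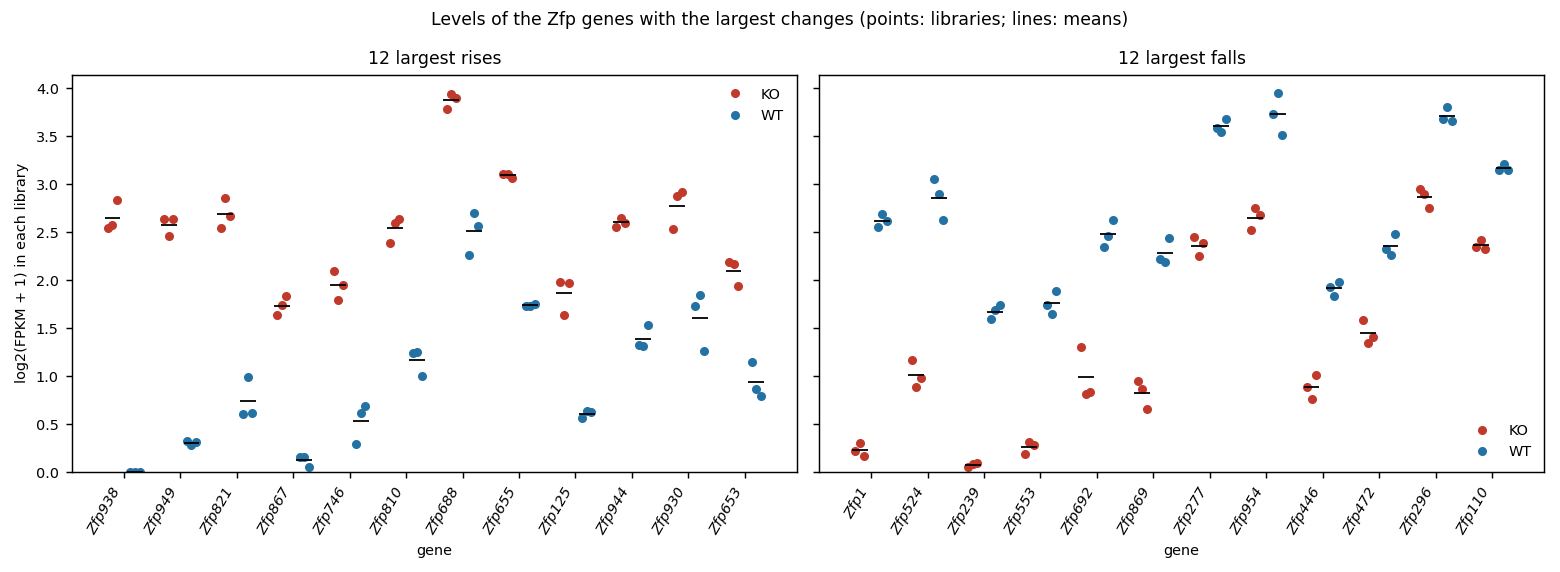
Levels of the Zfp genes with the 12 largest rises (left) and the 12 largest falls (right), as log2(FPKM + 1) in each KO library (red, left of each pair) and WT library (blue, right), with lines for the means of 3 libraries. In each of these genes the KO points lie wholly above or wholly below the WT points, and Zfp938 is at 0 in each WT library.

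The other 28 members that rose changed by 0.26 to 1.13 on the log2 scale, and 19 of them kept the call after rescaling. The other 25 that fell changed by -0.80 to -0.13, and 25 of 25 kept it. The 24 that did not pass lay between -0.28 and 0.40, with adjusted p of 0.0571 to 0.864, and 19 of these were lower after rescaling. Zfp429 was called although its groups overlapped, and Zfp800 did not pass (adjusted p = 0.0822) although its KO libraries lay below its WT libraries. Both were picked out after their values were seen. The Zfp429 call was lost without KO replicate 1 or 3 (log2 change -0.45 and -0.42) and without WT replicate 1 or 2 (-0.46 and -0.51). Over 14 other processing choices, 31 of the 40 rises and 30 of the 37 falls kept their call wherever the gene was tested, and no called gene was called in the opposite direction.

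The most abundant Zfp genes were mostly lower in KO. Zfp706, whose product promotes the exit of mouse embryonic stem cells from self-renewal, was at 97.8, 98.8 and 102 FPKM in KO and 169, 173 and 177 FPKM in WT (log2 change -0.79, SE 0.03, adjusted p = 2.38e-07). Zfp330, which encodes a nucleolar protein, was at 28.9, 30.1 and 25.5 FPKM in KO and 49.4, 47.1 and 50.3 FPKM in WT (log2 change -0.78, adjusted p = 1.80e-05). Zfp622, needed for the cytoplasmic maturation of the large ribosomal subunit, was at 27.2, 28.3 and 28.8 FPKM in KO and 48.0, 48.5 and 47.3 FPKM in WT (log2 change -0.75, adjusted p = 8.84e-07). Each of the 3 had separate groups. Zfp511 was at 37.5 ± 3.0 FPKM in KO and 44.9 ± 1.7 FPKM in WT (log2 change -0.25, adjusted p = 0.00621), a call lost with quantile normalization (-0.15). Zfp207 encodes BuGZ, a spindle and kinetochore protein, and was at 23.9 ± 0.38 FPKM in KO and 26.4 ± 1.1 FPKM in WT (log2 change -0.13, adjusted p = 0.0231). This small difference was not called with quantile normalization (-0.08) and not without KO replicate 1 or 2 (-0.13 each) or without WT replicate 1 or 2 (-0.10 and -0.14). Zfp414 went the other way, at 32.4 ± 1.8 FPKM in KO and 24.6 ± 0.82 FPKM in WT (log2 change 0.38, adjusted p = 0.000304), but another gene covers 30.4% of its exons, and it stood at -0.07 after rescaling.

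Of the 22 members with a mean of at least 5 FPKM, 6 were higher in KO and 13 lower, where 39.6% and 45.5% of all genes of that level were, and 4 were higher and 16 lower after rescaling. Of the 43 members between 2 and 5 FPKM, 23 were higher and 11 lower, against 821 and 773 of 2203 genes at that level, and 19 were higher and 18 lower after rescaling, against 546 and 1147. Of the 36 members between 1 and 2 FPKM, 11 were higher and 13 lower, against 582 and 532 of 1694 genes, and after rescaling 8 were higher and 22 lower, against 385 and 782. Most members sat low, 78.2% of them under 5 FPKM where 42.8% of all tested genes did. The members' summed level was 613, 617 and 616 FPKM in KO and 697, 706 and 713 FPKM in WT, and without Zfp706, the most abundant member, it was 515, 518 and 514 FPKM in KO and 528, 533 and 537 in WT. The median member was at 3.05, 2.93 and 2.93 FPKM in KO and 2.30, 2.26 and 2.13 FPKM in WT. As deposited, the groups did not overlap in any of these 3 measures. After rescaling, the sums lay further apart, at 528, 529 and 532 FPKM in KO and 842, 841 and 841 FPKM in WT, while the medians overlapped, at 2.63, 2.51 and 2.53 FPKM in KO and 2.78, 2.69 and 2.51 FPKM in WT.

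Below the minimum, the balance leaned to WT. Of the 190 Zfp rows with reads but a mean under 1 FPKM, 35 were higher and 72 lower in KO when the same test was run with no minimum, where 11.2% and 18.8% of all 12024 genes under 1 FPKM were. Over all 291 Zfp rows with a read, 73 were higher and 105 lower, where 22.1% and 27.3% of all 21132 genes were. More Zfp symbols were read at all in WT: 220, 224 and 220 had a value above 0 in the KO libraries and 257, 259 and 261 in the WT libraries. More of all genes were read in WT as well, with 14691, 14560 and 14660 above 0 in the KO libraries and 15956, 16466 and 16104 in the WT libraries. There were 21 Zfp symbols with reads in KO only and 52 with reads in WT only, beside 2610 and 4064 of all genes.

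Among members known to act on promoters and chromatin, 10 of the listed genes were measured, of which 3 were higher, 2 lower and 5 did not pass, where 38% of all genes were higher and 40.4% lower, and after rescaling 2 were higher and 6 lower. Zfp143, an activator of many CpG-island promoters that is also bound at chromatin loop anchors, was at 0.804, 0.378 and 0.847 FPKM in KO and 1.72, 1.47 and 1.60 FPKM in WT (log2 change -0.64, SE 0.13, adjusted p = 0.0026). Its libraries were separate by genotype, on 77 reads in KO and 214 in WT. Zfp219, a GC-box binding factor, was at 2.78, 2.98 and 4.03 FPKM in KO and 1.13, 0.983 and 1.26 FPKM in WT, 2.90-fold higher (log2 change 1.0, adjusted p = 0.000197). Zfp592 and Zfp687 encode proteins known in human cells as members of a complex with ZMYND8. Zfp592 was at 3.06, 3.31 and 2.97 FPKM in KO and 1.13, 1.46 and 1.52 FPKM in WT (log2 change 0.80, adjusted p = 0.000128). Zfp687 was at 3.03, 2.49 and 2.65 FPKM in KO and 2.66, 2.77 and 3.14 FPKM in WT, with overlapping groups (log2 change -0.05, adjusted p = 0.620), and the difference between the 2 genes was not tested.

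The calls of Zfp131 and Zfp148 were fragile. Zfp131, a BTB zinc finger gene, was at 3.60 ± 0.45 FPKM in KO and 2.65 ± 0.37 FPKM in WT (log2 change 0.33, adjusted p = 0.0258). Its call was lost without KO replicate 2 or 3 (0.27 and 0.32) and without WT replicate 2 or 3 (0.25 and 0.35), and after rescaling the difference was -0.02. Zfp148, which binds GC-rich promoters, was at 1.33 ± 0.06 FPKM in KO and 1.70 ± 0.07 FPKM in WT (log2 change -0.21, adjusted p = 0.0326), a call lost without KO replicate 1 or 3 (-0.20 and -0.19) and without WT replicate 1 or 2 (-0.22 and -0.19). Zfp410, known as the activator of Chd4, was at 14.2 ± 1.3 FPKM in KO and 13.8 ± 0.25 FPKM in WT (log2 change 0.04, adjusted p = 0.569). Chd4 itself, the NuRD helicase, taken up here after its value was seen, was at 5.88 FPKM in KO and 4.56 FPKM in WT (log2 change 0.31, adjusted p = 0.00443, and -0.09 after rescaling). Zfp263, Zfp217 and Zfp335 did not pass either, at log2 changes of 0.05, -0.03 and -0.28.

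The letters that ZNF143, the human counterpart of Zfp143, is known to bind were found in the upstream window of some members. The core of 13 letters (ACTACA, 2 free bases, then TCCCA), searched on both strands in the 250 bases before the RefSeq start, was in 8 of the 87 members with a window (9.2%) and in 399 of all 27025 windows (1.48%). All windows include genes of any level, whereas members had passed a minimum, so the 2 sets are unlike. Below are the core in capitals and 8 bases of GRCm38.p6 on each side, on the strand where the core reads 5′ to 3′, shown because Zfp143 itself fell and because Zfp1, the largest fall, is among them.
Zfp1, chr8:111643408-111643436, minus strand: ggtgtaggACTACAATTCCCAtaatgcct
Zfp180, chr7:24081865-24081893, minus strand: tcaatggaACTACAATTCCCAgaactctc
Zfp260, chr7:30095038-30095066, minus strand: aactgtgaACTACATTTCCCAgaagtctc
Zfp358, chr8:3493105-3493133, plus strand: tcgagcgaACTACAAGTCCCAgcagctcc
Zfp429, chr13:67399819-67399847, plus strand: cggtgcggACTACATCTCCCAgaagtctg
Zfp444, chr7:6172364-6172392, minus strand: agctggaaACTACATCTCCCAagaaacat
Zfp566, chr7:30090566-30090594, minus strand: tcggactgACTACATTTCCCAgagggctc
Zfp691, chr4:119174354-119174382, minus strand: acctccgaACTACAACTCCCAgcatgccg

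The genes with this core did not share a direction. Zfp1, Zfp180 (log2 change -0.50), Zfp429 (-0.53) and Zfp691 (-0.40) were lower in KO, Zfp260 (0.86), Zfp358 (0.70) and Zfp444 (0.34) were higher, and Zfp566 did not pass (-0.03). All but Zfp1 were named after their values were seen. After rescaling Zfp358 and Zfp444 did not pass (0.38 and -0.06), and Zfp429 is the gene whose call was lost without any of 4 single libraries. A match is a description of the letters, and binding was not measured.

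Other promoter letters also differed in frequency between the members' windows and all windows, which again include genes of any level. Windows of all genes that pass the same minimum were not compared. The GC box (GGGCGG, both strands in each search) was in 56.3% of members' windows and 32.9% of all windows, and the ETS core (CCGGAA) was in 31% and 12.2%. The CCAAT box (CCAAT) was in 49.4% and 34.5%, whereas TATAAA was in 4.6% and 13%. The cyclic AMP response element (TGACGTCA) was in 3.45% and 1.62%, and the E-box CACGTG was in 4.6% and 6.05%. The members' windows were richer in CpG, with a median of 13 against 6 in all windows, and in G and C, with a median of 56.4% against 52%. The 2 windows below, of the most one-sided rise and of the gene with the largest fold in WT, are shown with the searched motifs in capitals. RefSeq gives each of these genes 2 windows, and the first is shown.
Zfp938, chr10:82241281-82241530, minus strand: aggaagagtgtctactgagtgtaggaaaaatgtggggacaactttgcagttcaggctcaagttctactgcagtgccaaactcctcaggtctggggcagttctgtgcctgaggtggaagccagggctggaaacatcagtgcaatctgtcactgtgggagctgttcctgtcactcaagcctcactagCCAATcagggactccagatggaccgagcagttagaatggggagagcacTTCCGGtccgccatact
Zfp239, chr6:117861774-117862023, plus strand: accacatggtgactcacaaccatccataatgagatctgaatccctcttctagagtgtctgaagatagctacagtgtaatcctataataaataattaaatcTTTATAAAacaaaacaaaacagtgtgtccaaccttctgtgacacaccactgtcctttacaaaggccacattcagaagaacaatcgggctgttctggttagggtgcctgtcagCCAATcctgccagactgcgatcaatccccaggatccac

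Both hold a CCAAT box. That of Zfp938 also holds an ETS core near its end, on the reverse strand, and that of Zfp239 holds overlapping TATA letters, on both strands. With 3 and 2 CpG, both lie under the members' median.

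As deposited, members that matched the KRAB pattern leaned towards KO and the others towards WT. The pattern is a single fixed one, so a KRAB box that departs from it was counted as no match. Of the 40 members with a match in their coding sequence, 19 were higher, 11 lower and 10 did not pass, with a median log2 change of 0.30. Of all genes, 38% were higher and 40.4% lower. Of the 60 coding members without a match, 20 were higher, 26 lower and 14 did not pass, with a median of -0.15. Both medians moved down with rescaling, to -0.02 with a match (17 higher and 19 lower) and -0.46 without (13 higher and 37 lower), while the median of all genes moved to -0.41. The medians of the mean levels were alike in the 2 classes, at 2.66 and 2.69 FPKM, but the upper ends were not. All 8 members with a mean of at least 20 FPKM, of which 2 were higher and 6 lower, had no match. The part that level plays in the contrast was not tested. Members with 11 or more fingers were higher in 14 of 27 cases and lower in 9 (median 0.40), which became 12 higher and 12 lower after rescaling (median 0.17). Those with up to 3 fingers were higher in 6 of 19 and lower in 8 (median -0.16), or 5 and 11 after rescaling. Between these, 9 of 28 members with 4 to 7 fingers were higher and 11 lower (median -0.08; 5 and 19 after rescaling), and 10 of 26 with 8 to 10 fingers were higher and 9 lower (median -0.04; 8 and 14 after rescaling). The finger classes differed in level. Their median mean was 6.77 FPKM with up to 3 fingers, 3.08 with 4 to 7, 2.26 with 8 to 10 and 2.61 with 11 or more. These are counts of genes, with no test between the classes or of the part that level plays.

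**Figure D4:**
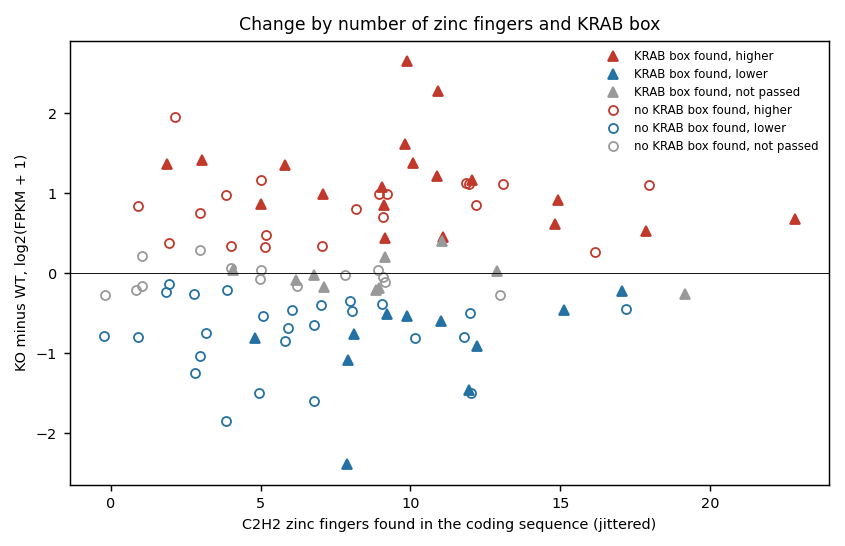
Difference in log2(FPKM + 1), KO minus WT, against the number of C2H2 fingers found in the coding sequence, for the 100 coding Zfp genes. Filled triangles mark those that matched the KRAB pattern and open circles those that did not. Red, blue and grey mark genes higher in KO, lower in KO and not passed. Of the triangles 19 are red and 11 blue, and of the circles 20 are red and 26 blue.

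The 2 measured members classed as KRAB genes in the list of known roles moved in opposite directions. That list was not complete: Zfp746, the KRAB repressor given above as higher in KO, was not on it. Zfp809, which silences murine leukaemia virus and endogenous retroviruses, was at 6.49, 5.69 and 5.25 FPKM in KO and 1.60, 3.38 and 2.51 FPKM in WT, 2.33-fold higher (log2 change 0.99, SE 0.18, adjusted p = 0.00177). Zfp110, whose product NRIF1 binds the p75 neurotrophin receptor, was at 4.08, 4.35 and 4.02 FPKM in KO and 7.86, 8.26 and 7.89 FPKM in WT (log2 change -0.81, SE 0.06, adjusted p = 1.02e-05). The groups overlapped in neither.

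Members whose products act on RNA, ribosomes or other proteins were higher in 4 cases, lower in 3 and not passed in 2, where 38% and 40.4% of all genes were higher and lower, and after rescaling 3 were higher and 4 lower. Zfp830, a splicing-associated nuclear protein, was at 27.2, 26.7 and 25.5 FPKM in KO and 13.3, 14.9 and 14.9 FPKM in WT, 1.85-fold higher (log2 change 0.84, adjusted p = 6.50e-06). Zfp346, which binds double-stranded RNA, was at 4.12, 3.89 and 3.31 FPKM in KO and 1.38, 1.46 and 1.44 FPKM in WT, 2.65-fold higher (log2 change 0.97, adjusted p = 2.96e-05). Zfp106, an RNA-binding protein needed for motor neurons, was at 6.13, 5.46 and 6.38 FPKM in KO and 3.03, 3.22 and 3.22 FPKM in WT (log2 change 0.75, adjusted p = 5.35e-05), although another gene covers 26.1% of its exons. All 3 kept separate groups. Zfp91, an E3 ubiquitin ligase of the kinase NIK, was at 2.53 ± 0.08 FPKM in KO and 1.54 ± 0.10 FPKM in WT (log2 change 0.48, adjusted p = 0.000581), which did not pass after rescaling (0.17). Zfp598, the ubiquitin ligase that marks collided ribosomes, was at 2.43 ± 0.21 FPKM in KO and 1.97 ± 0.46 FPKM in WT (log2 change 0.21, adjusted p = 0.146), and passed without WT replicate 1 (0.34). Zfp326, of the complex that links RNA polymerase II to splicing, did not pass (log2 change -0.16, adjusted p = 0.175). The falls were those of Zfp622, Zfp330 and Zfp207, given above.

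Of 16 pairs of adjacent members no more than 100 kb apart, 3 were higher together, 3 lower together, 2 opposite, and 8 had at least 1 gene that did not pass. Taken singly, 39.6% of all members were higher and 36.6% lower. Pairs of members that are not neighbours were not compared, so the counts do not show that neighbours moved together. The pairs that rose were Zfp809 with Zfp810 (chromosome 9), Zfp746 with Zfp777 (chromosome 6) and Zfp944 with Zfp946 (chromosome 17). The pairs that fell were Zfp239 with Zfp637 (chromosome 6), Zfp954 with Zfp772 and Zfp553 with Zfp771 (both on chromosome 7). Rescaling ended the calls of Zfp777 (0.14) and Zfp946 (0.22), and that of Zfp946 was also lost without WT replicate 3 (0.38). The partners outside the rule for named genes were named for their place, after their values were seen.

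The closest opposite pair was Zfp692 with Zfp672, whose ends lie 486 bases apart on chromosome 11 (chr11:58307069-58314627 on the plus strand and chr11:58315114-58330339 on the minus strand). Zfp672, named for its place, was at 6.66, 7.27 and 6.39 FPKM in KO and 2.49, 3.07 and 2.29 FPKM in WT (log2 change 1.11, adjusted p = 2.73e-05), while Zfp692 fell as given above. The other opposite pair was Zfp956 (log2 change -0.69) with Zfp777 (0.44).

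On a list of corepressor and heterochromatin genes, more were lower than higher in KO. Of 38 measured genes of TRIM28-linked corepressors and heterochromatin, 8 were higher, 19 lower and 11 did not pass, with a median log2 change of -0.12, where 38% of all genes were higher and 40.4% lower. Trim28, the shared scaffold of KRAB proteins, was at 34.6, 32.9 and 33.0 FPKM in KO and 67.3, 68.4 and 69.0 FPKM in WT, 2.04-fold higher in WT (log2 change -1.01, SE 0.03, limma adjusted p = 1.59e-07). Uhrf1, which maintains DNA methylation, was at 13.0, 12.9 and 12.3 FPKM in KO and 24.9, 27.8 and 25.1 FPKM in WT (log2 change -0.97, adjusted p = 2.55e-06). Morc2a, which works with the HUSH silencing complex, was at 0.260, 0.160 and 0.180 FPKM in KO and 2.24, 2.31 and 2.06 FPKM in WT, 11.0-fold higher in WT (log2 change -1.42, adjusted p = 2.66e-06). Mta3, a NuRD subunit, was at 0.514, 0.561 and 0.756 FPKM in KO and 2.54, 2.34 and 2.92 FPKM in WT (log2 change -1.16, adjusted p = 2.45e-05). These 4 had the largest changes of the list, and their groups were separate. The largest of the 8 rises, picked out after their values were seen, were those of Ctbp1 and Ctbp2 (log2 change 0.62 each) and Cbx5 (0.50). After rescaling, 1 gene of the list was higher and 30 were lower (median -0.55), where 22.8% and 59.1% of all genes were.

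The related symbol families Zbtb, Zscan, Zkscan and Zfp with a final letter had 21 measured genes, of which 10 were higher, 5 lower and 6 did not pass (38% and 40.4% of all genes were higher and lower), with 6 higher and 8 lower after rescaling. Their widest changes, picked out after their values were seen, were those of Zfp119a, at 5.98 FPKM in KO and 0.705 FPKM in WT (log2 change 2.04, adjusted p = 6.49e-06), and Zbtb8a, at 1.52 FPKM in KO and 12.9 FPKM in WT (-2.46, adjusted p = 3.62e-07). Zfp64 was another member picked out after its values were seen, since it is known to maintain the MLL promoter in MLL-rearranged human leukaemia. It was at 2.05, 2.39 and 2.69 FPKM in KO and 5.16, 4.09 and 5.44 FPKM in WT, 2.06-fold higher in WT with separate groups (log2 change -0.80, adjusted p = 0.000462).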

How the data were processed

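The authors deposited 1 table of FPKM values for 47643 genes in 6 libraries, described per the labels' protocols as Smart-seq2 cDNA from sorted cells, made into Nextera XT libraries and sequenced on a NextSeq. Per the submitters' processing notes, CASAVA, bcl2fastq, STAR 2.5.3a and DESeq2 1.18.1 were used with mm10. The counting tool, its annotation, strand and multimapping settings are not stated in the sources used here. Overlapping genes and near-identical Zfp paralogues are therefore uncertain.

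FPKM values turned back into whole reads (to within 0.001 of a whole number) for 99.96% of the 21132 genes with a value above 0, 16481 at the annotated gene length and 4643 at a searched length, where the number is the smallest the values allow. Of the members, 63 had annotated and 38 searched lengths, and a member had 120 to 50639 reads over the 6 libraries (median 807). The floor of 3 reads covers counting error alone, because amplified reads carry no molecular identifiers. Reads of replicates differed by more than sampling noise (chi-square per degree of freedom 2.62 to 3.22), so each library counted as 1 sample.

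The 9108 genes averaging 1 FPKM or more were tested on log2(FPKM + 1) with limma 3.58.1 in R 4.3.3: a linear model of genotype over the 3 KO and 3 WT libraries, empirical Bayes with a mean-variance trend, two-sided, Benjamini-Hochberg adjusted over all 9108 genes, threshold 0.05. Fits were also run on simulated reads in which few genes were changed, unlike these data, so that check gives no error rate for the calls here. Alternatives were a pseudocount of 0.1, no minimum, a minimum of 5 FPKM, libraries rescaled to equal sums, quantile normalization, no trend, a replicate block, each library left out, and limma-voom on the recovered reads (added after seeing the data). Gene positions and exon overlaps came from GENCODE M21 on GRCm38, and promoter windows from RefSeq (GRCm38.p6), the first window of a gene being used. Fingers (C, 2 to 4 residues, C, 12 residues, H, 3 to 5 residues, H) and a KRAB A-box pattern were read from translated GENCODE coding sequences of 100 members. Tables and figures used matplotlib 3.10.9, scipy 1.17.1, pandas 2.3.3 and numpy 2.4.6 under Python 3.11.15.

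The members, the gene lists, the motifs and the tests were chosen with earlier results of these data known. Named genes were the 12 largest rises and 12 largest falls that passed, the 6 most abundant members, measured members of a list of 45 genes with known roles, the 2 rows on each side of the minimum, Prkaa1, Prkaa2, and the 4 corepressor genes with the largest change. The corepressor list had 47 entries, 46 in the table and 38 tested. Of the marker lists not described in the report, megakaryocyte genes summed to 12.9 to 14.1 FPKM in KO and 4.98 to 5.89 in WT, monocyte and dendritic genes to 57.7 to 63.2 in KO (mostly Cd74) and 59.3 to 60.2 in WT (mostly Ly86), B cell genes to 0.0962 to 0.387 in KO and 0 to 0.00806 in WT, T and natural killer cell genes to 0.177 to 0.663 in KO and 0 to 0.0536 in WT, and endothelial and stromal genes to 0.528 to 0.926 in KO and 0.686 to 0.790 in WT. One listed marker gene is not reported here.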

Additional observations from a re-analysis of the deposited data

How the results depend on the processing

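With a minimum of 5 FPKM, 6 Zfp genes were higher and 13 lower in KO, and with no minimum 73 were higher and 105 lower. Rescaling to equal sums, which lowered the median of all genes to -0.41, gave 56 Zfp genes lower. All tested genes came to 2074 higher after rescaling, 2072 higher and 2383 lower at 5 FPKM, and 5769 lower with no minimum. Corepressor genes came to 1 higher and 30 lower after rescaling, and 5 higher and 12 lower at 5 FPKM. Related families came to 6 higher and 8 lower after rescaling, 5 higher and 1 lower at 5 FPKM, and 18 higher and 27 lower with no minimum. A minimum tests fewer or more genes by construction, and the cause of the shifts with rescaling was not tested beyond the unequal library sums. Signs turned with rescaling for 11 members, 4 of them called as deposited: Zfp131 (-0.02), Zfp414 (-0.07), Zfp444 (-0.06) and Zfp523 (-0.04). The others included Zfp263 (-0.29), Zfp410 (-0.40) and Zfp598 (-0.11). Among the genes named by rule, signs turned with a library left out for Zfp217 (-0.14 to 0.12, the highest without KO replicate 3), Zfp263 (-0.02 without KO replicate 1), Zfp410 (-0.03 to 0.09, the lowest without KO replicate 2) and Zfp687 (0.00 without WT replicate 3). Leaving out each library in turn gave 38 to 40 Zfp genes higher and 32 to 37 lower, 3305 to 3380 of all genes higher and 3507 to 3603 lower, 7 to 8 corepressor genes higher and 16 to 18 lower, and 9 to 11 related genes higher and 5 lower. Equal replicate numbers did not pair the libraries: deviations of same-numbered libraries correlated at 0.01, -0.01 and -0.02. The replicate block gave 39 Zfp genes higher and 33 lower, with 3420 and 3620 of all genes, 7 and 18 corepressor genes and 10 and 5 related genes, and ended the calls of Zfp131, Zfp148, Zfp207, Zfp668, Zfp740 and Zfp950. limma-voom on recovered reads gave 41 higher and 38 lower. Depth limits the weakest values: Zfp239 had 9 reads and Zfp1 12 over the KO libraries, and a WT level of Zfp938 under 3 reads could not be told from 0.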

Other observations

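Zfp36, left out of the family because its product is tristetraprolin, an RNA-binding protein that speeds the decay of cytokine mRNAs, was at 8.97, 7.63 and 9.13 FPKM in KO and 1.86, 1.72 and 1.63 FPKM in WT (log2 change 1.80, SE 0.08, limma adjusted p = 9.19e-07), on 1110 reads in KO and 270 in WT. The KO libraries lay wholly above the WT libraries.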
